A study of Mus musculus with 18 samples.

Results

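A set of 10 genes of fat cell differentiation and fat storage was followed across 4 cell subpopulations of the mouse mammary gland, and 3 of the 10 were called between stromal cells and every epithelial subset. Pparg and Lpl were higher in stromal cells than in all 3 epithelial subsets, and Lipe was lower than in all 3, shares near those over all genes tested (9.93% higher and 9.69% lower). Lpl kept these calls in every alternative setting of the analysis that holds stroma. Pparg lost its call against MaSC-enriched cells in 7 of 34 such settings. Lipe was lower than all 3 by its brightest probe only, and not with the mean of its probes. Of the 10, Plin1, Fabp4 and Adipoq, also genes of a filled fat cell, were not called between stroma and any epithelial subset over all arrays. Plin1 lay at background on nearly every array, and Fabp4 was low in stroma. Adipoq reached its highest levels on 4 arrays, the MaSC-enriched and luminal progenitor arrays of mouse pools 3 and 4. Endothelial genes were also high on those arrays. Without them Adipoq was called higher in stroma than in both luminal subsets. The genes were Pparg, Cebpa, Cebpb, Cebpd, Lpl, Fabp4, Adipoq, Plin1, Dlk1 and Lipe, found by gene symbol in the annotation of the array probes. They had 18 probes, and all 10 genes were among the 16319 that passed the filter on low values.

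Fat cells arise from fibroblast-like preadipocytes in the connective tissue, which in the mouse mammary gland lies in a fat pad around the ducts. C/EBPβ and C/EBPδ are induced early in that process and precede the nuclear receptor PPARγ and C/EBPα, which together switch on the genes of fat storage. Those genes encode lipoprotein lipase, which releases fatty acids from circulating lipoproteins, the fatty acid carrier FABP4, the lipid droplet coat protein perilipin 1, hormone-sensitive lipase, which mobilises stored fat, and the secreted hormone adiponectin. Dlk1, also called Pref-1, is expressed by preadipocytes in mouse and opposes their differentiation.

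Gene expression was measured on 18 Illumina whole-genome mouse BeadChip arrays from female FVB/N mice carrying no transgene or treatment named in the labels. The cells came from 5 pools of 3 to 5 mice, were depleted of cells with CD31, CD45 or TER119 on their surface, and were sorted by flow cytometry into MaSC-enriched cells (CD29hi CD24+, the basal subset that holds mammary stem cells), luminal progenitor cells (CD29lo CD24+ CD61+), mature luminal cells (CD29lo CD24+ CD61-) and stromal cells (CD29lo CD24-). There were 5 arrays of each epithelial subset, 1 per pool, and 3 stromal arrays, from pools 1 to 3, so the replicate number is the number of the pool. Pools 1 to 3 were hybridised in a first batch of 12 arrays and pools 4 and 5 in a second of 6 arrays without stroma, and the age of the mice in these pools is not given in the sources used here. The mice from which the study showed a representative sort were virgins of the same strain, and for those mice the study states an age.

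The subsets were first checked against markers. In stromal cells 13 of 14 fibroblast genes were higher than in all 3 epithelial subsets (9.93% of all genes). There, 8 of 11 epithelial genes were lower than in all 3 (9.69%). All 8 basal genes were higher in MaSC-enriched than in luminal progenitor (11.3% of all genes) and mature luminal cells (13.7%). Background on each array, set from probes of odorant and vomeronasal receptors, ran from 5.10 to 5.44 in log2 units, with 46.3% to 55.9% of probes above it. Luminal progenitor replicate 4 had the lowest of these shares and the lowest array weight, 0.171. The 13 endothelial genes stood apart on 4 arrays, the MaSC-enriched and luminal progenitor arrays of pools 3 and 4. Their mean level there was 10.16 to 11.89, against 6.63 to 9.19 on the other epithelial arrays and 8.24 to 9.12 in stroma. Pecam1, which encodes CD31, read 10.66 to 12.67 on those 4 arrays and 7.16 to 9.78 on the other 11 epithelial arrays. Epithelial markers departed there too, by summed linear level. Luminal progenitor genes read 43852 and 35726 in MaSC-enriched replicates 3 and 4, and 7712 to 10087 in replicates 1, 2 and 5. Basal genes read 32576 and 36198 in luminal progenitor replicates 3 and 4, and 4829 to 11937 in the others. Mature luminal replicate 4, not among the 4 arrays, was also high for basal genes, at 31551. Its luminal progenitor genes read 57342, against 26523 to 39855 on the other mature luminal arrays. Its mature luminal genes read 9525, against 19680 to 23715. A mixing of subsets on the 4 arrays or on mature luminal replicate 4 was not tested. Below, the 4 arrays of pools 3 and 4 are the MaSC-enriched and luminal progenitor arrays only. Differences of the 10 genes are given with and without these 4 arrays, for calls and for any difference whose call changed. Without them the marker counts in stroma were 12 fibroblast genes higher and 6 epithelial genes lower.

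A difference was called where limma's moderated test gave an adjusted p under 0.05, with Benjamini-Hochberg adjustment over all probes and all 6 pairwise comparisons, together with a fold change of at least 1.5. Levels are log2 normalised intensities, each difference is a fitted value with its standard error, and the fit weighted the arrays, so a difference can depart from that of the plain group means. Pools are separate groups of mice.

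**Figure D1:**
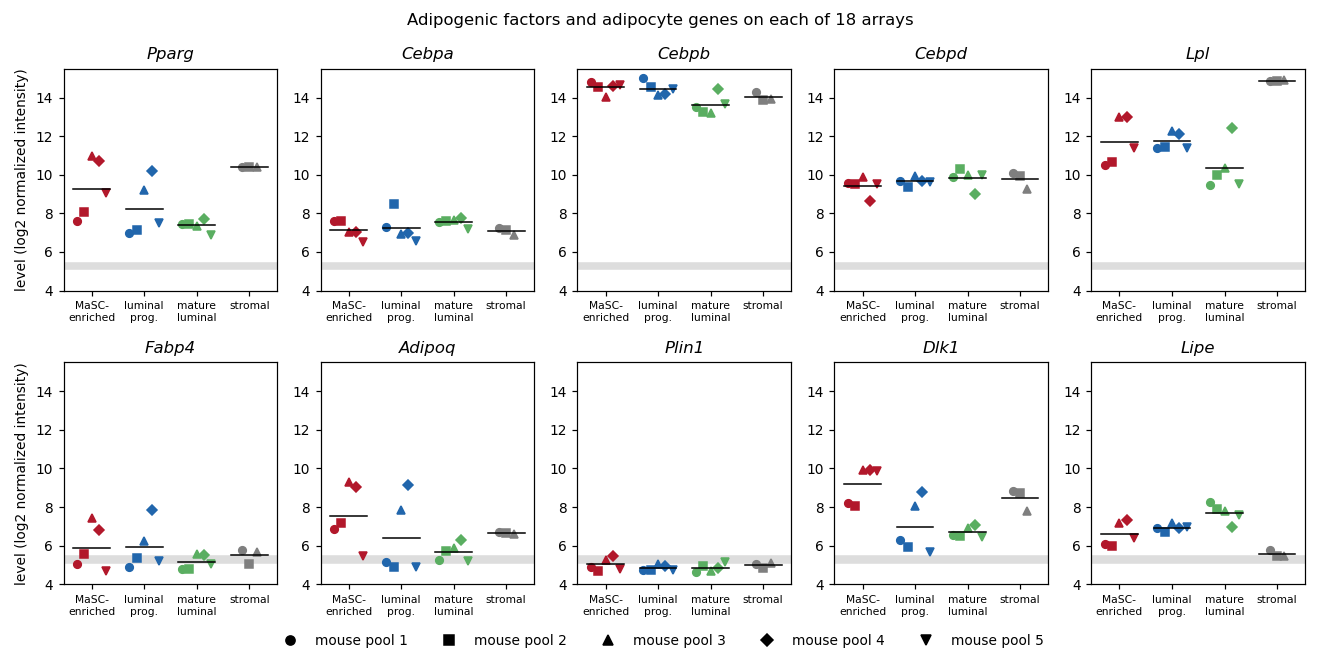
Level of each of the 10 genes (vertical axis, log2 normalised intensity) on the 18 arrays by subpopulation, with the mouse pool as the symbol, the group mean as a line and the range of background over arrays in grey. Pparg and Lpl are tight and high in the 3 stromal arrays, Lipe is lowest there, and Pparg, Fabp4 and Adipoq are high on the MaSC-enriched and luminal progenitor arrays of pools 3 and 4.

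Of the 10 genes, 2 were higher in stromal cells than in all 3 epithelial subsets, where 9.93% of all genes tested were, and 1 was lower than in all 3, where 9.69% of all genes were. Taken 1 comparison at a time, 2 genes were higher in stromal than in MaSC-enriched cells (14.3% of all genes), 3 were higher than in luminal progenitor cells (16.5%) and 3 were higher than in mature luminal cells (16.6%). Lipe was the 1 gene called lower in each of them, beside 16.1%, 19.8% and 21.7% of all genes. The median over the 10 genes of the stromal minus epithelial difference was 0.11 log2 units, against -0.05 over all genes. These arrays hold RNA of whole sorted fractions, so fewer cells of a type and less RNA per cell cannot be told apart.

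Pparg, the nuclear receptor at the centre of fat cell differentiation, is described first. Its levels in stroma were 10.41, 10.42 and 10.40. In MaSC-enriched cells, replicates 1 to 5 read 7.59, 8.07, 10.96, 10.71 and 9.04, in luminal progenitor cells 6.98, 7.15, 9.20, 10.20 and 7.50, and in mature luminal cells 7.47, 7.43, 7.37, 7.73 and 6.89. The stromal arrays lay above every luminal array, but replicates 3 and 4 of the MaSC-enriched subset lay above the stroma. Pparg was 2.86-fold higher in stromal than in MaSC-enriched cells (log2 difference 1.52 ± 0.46 SE, limma adjusted p = 0.0163), 6.40-fold higher than in luminal progenitor cells (2.68 ± 0.44, limma adjusted p = 8.35e-05) and 8.60-fold above its mature luminal level (3.10 ± 0.41, limma adjusted p = 6.87e-06). A second Pparg probe gave the same 3 calls, with log2 differences of 1.65, 2.52 and 2.71, and the third probe was above background on 0 arrays.

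The difference of Pparg from MaSC-enriched cells was the least firm of the 3. Within pools 1 and 2 stroma exceeded MaSC-enriched cells by 2.82 and 2.35 log2 units, and in pool 3 the difference was -0.56. Without the MaSC-enriched and luminal progenitor arrays of pools 3 and 4, the stromal excess of Pparg was 2.40 over MaSC-enriched, 3.34 over luminal progenitor and 3.06 over mature luminal cells, each called. The call against MaSC-enriched cells was lost without array weights (adjusted p = 0.163, limma), without the pool as a block (0.0636), against a minimum fold in the test itself (0.207), and without stromal replicate 1 (0.0892), stromal replicate 2 (0.0856), MaSC-enriched replicate 1 (difference 0.85, adjusted p = 0.223) or MaSC-enriched replicate 2 (1.03, adjusted p = 0.156).

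Mouse Pparg has several start sites, and its promoter windows are shown because Pparg is the transcription factor among the 10 genes that was called higher in stroma. The sequences are the 250 bases before each of 3 RefSeq start sites on the plus strand of chromosome 6 (GRCm38.p6), at chr6:115360894-115361143, chr6:115362099-115362348 and chr6:115421816-115422065. Capitals mark the nuclear receptor half-site AGGTCA, the C/EBP motif TTNNGCAA and the TATA box TATAAA, on either strand.
Pparg start site 1: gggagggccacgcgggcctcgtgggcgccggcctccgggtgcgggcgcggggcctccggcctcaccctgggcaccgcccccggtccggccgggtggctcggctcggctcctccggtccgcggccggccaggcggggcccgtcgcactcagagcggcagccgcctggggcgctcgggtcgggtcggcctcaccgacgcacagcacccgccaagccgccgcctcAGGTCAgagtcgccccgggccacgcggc
Pparg start site 2: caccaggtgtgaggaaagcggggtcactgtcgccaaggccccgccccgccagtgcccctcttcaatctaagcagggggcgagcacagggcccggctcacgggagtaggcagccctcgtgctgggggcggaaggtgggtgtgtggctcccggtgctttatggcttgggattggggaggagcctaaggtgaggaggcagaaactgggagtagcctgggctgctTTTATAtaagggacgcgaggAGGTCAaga
Pparg start site 3: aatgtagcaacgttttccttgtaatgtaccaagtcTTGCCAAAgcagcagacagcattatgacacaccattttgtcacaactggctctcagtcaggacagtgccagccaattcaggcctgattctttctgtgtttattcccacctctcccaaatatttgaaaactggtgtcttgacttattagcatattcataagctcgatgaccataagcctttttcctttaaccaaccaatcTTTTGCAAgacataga
The first and second windows each held AGGTCA, the second also TATAAA on the opposite strand, and the third held TTNNGCAA once on each strand. Among 32851 promoter windows of 300 bases (250 before and 50 after the start), AGGTCA was in 16.3%, TTNNGCAA in 10.8%, TATAAA in 13.6% and the E-box CANNTG in 72.3%. Of the 10 start sites listed for 7 of the genes, 2, 2, 3 and 7 held them, and 0 held the direct repeat of AGGTCA with 1 base between its copies, which was in 0.0396% of windows. Lpl, Fabp4 and Cebpd had no entry in the promoter table. The array does not separate the Pparg start sites, and a match describes the letters only.

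Lpl, the lipase that frees fatty acids from circulating lipoproteins, gave the largest stromal difference of the 10 genes in each of the 3 comparisons. It read 14.84, 14.87 and 14.90 in stroma. The MaSC-enriched arrays read 10.53, 10.68, 13.00, 12.97 and 11.36, the luminal progenitor arrays 11.41, 11.44, 12.26, 12.11 and 11.41, and the mature luminal arrays 9.48, 9.97, 10.34, 12.40 and 9.50. No epithelial array overlapped the stroma, and mature luminal replicate 4 stood well above the other mature luminal arrays. The excess over MaSC-enriched cells was 3.47 ± 0.38 (limma adjusted p = 5.93e-07), over luminal progenitor cells 3.24 ± 0.36 (7.87e-07) and over mature luminal cells 4.83 ± 0.33 (1.38e-09), 11.1-fold, 9.43-fold and 28.5-fold. The highest value of any probe in the table was 15.09, so the stromal level of Lpl was near the top of the scale. A second Lpl probe was above background on 0 arrays. Without the MaSC-enriched and luminal progenitor arrays of pools 3 and 4 the differences were 4.07, 3.40 and 4.84, each called.

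Lipe, which encodes hormone-sensitive lipase, ran the other way. Stroma read 5.78, 5.49 and 5.44, close to background, and the mature luminal arrays 8.28, 7.91, 7.79, 6.96 and 7.60. MaSC-enriched arrays lay at 6.07, 5.98, 7.18, 7.34 and 6.42 and luminal progenitor arrays at 6.92, 6.71, 7.17, 6.89 and 6.98. Every stromal array was below every epithelial array. The log2 difference of stroma was -0.88 ± 0.23 from MaSC-enriched (limma adjusted p = 0.00627), -1.35 ± 0.22 from luminal progenitor (8.32e-05) and -2.25 ± 0.21 from mature luminal cells (6.02e-08). Without the MaSC-enriched and luminal progenitor arrays of pools 3 and 4 the first of these was -0.48 (limma adjusted p = 0.0692) and not called, and the others were -1.26 and -2.28, both called. Of 2 further Lipe probes, 1 gave a stromal call, against mature luminal cells, where the mature luminal level was at least 1.14-fold higher since this probe was above background on 0 stromal arrays, and the other gave no call, and with the mean of the probes only the difference from mature luminal cells was called.

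Dlk1, the preadipocyte gene, was high in both stromal and MaSC-enriched cells. It read 8.83, 8.74 and 7.82 in stroma and 8.20, 8.08, 9.91, 9.93 and 9.87 in MaSC-enriched cells, which overlapped. Luminal progenitor arrays read 6.29, 5.94, 8.05, 8.79 and 5.69 and mature luminal arrays 6.55, 6.49, 6.92, 7.08 and 6.45. Every stromal and MaSC-enriched array lay above every mature luminal array, and luminal progenitor replicates 3 and 4 reached into the stromal range. Dlk1 was 3.90-fold higher in stromal than in luminal progenitor cells (1.96 ± 0.40, limma adjusted p = 0.000694) and 4.00-fold above its mature luminal level (2.00 ± 0.37, limma adjusted p = 0.000293). The difference between stroma and MaSC-enriched cells was not called. Without the MaSC-enriched and luminal progenitor arrays of pools 3 and 4 the stromal excess of Dlk1 was 2.52 over luminal progenitor and 1.97 over mature luminal cells, both called. A second, dimmer probe gave the call against mature luminal cells, at least 1.52-fold since it was above background on 0 of 5 mature luminal arrays, and not that against luminal progenitor cells (0.97, limma adjusted p = 0.0577).

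Adipoq, which encodes adiponectin, was not called between stroma and any epithelial subset. The stromal arrays read 6.73, 6.64 and 6.62. MaSC-enriched arrays read 6.84, 7.15, 9.31, 9.03 and 5.44, luminal progenitor arrays 5.15, 4.92, 7.86, 9.14 and 4.87, and mature luminal arrays 5.27, 5.72, 5.86, 6.32 and 5.19. Stroma lay above all mature luminal arrays, and the 4 arrays of pools 3 and 4 in the other epithelial subsets lay above stroma, as did MaSC-enriched replicates 1 and 2. The differences of stroma were -0.76 from MaSC-enriched (95% interval -1.82 to 0.30), 0.75 from luminal progenitor (-0.26 to 1.76) and 1.07 from mature luminal cells (0.13 to 2.01, limma adjusted p = 0.0845). Without those 4 arrays Adipoq was higher in stroma than in luminal progenitor (1.54, limma adjusted p = 4.47e-05) and mature luminal cells (1.02, limma adjusted p = 0.000756), and the difference from MaSC-enriched cells was -0.09.

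Fabp4, the fatty acid carrier of fat cells, was above background on 10 of 18 arrays. It read 5.79, 5.07 and 5.67 in stroma. MaSC-enriched arrays read 5.03, 5.56, 7.42, 6.80 and 4.68, luminal progenitor arrays 4.87, 5.38, 6.23, 7.85 and 5.20, and mature luminal arrays 4.80, 4.78, 5.56, 5.52 and 5.06. The 4 highest arrays were again the MaSC-enriched and luminal progenitor arrays of pools 3 and 4, at 6.23 to 7.85. The other 11 epithelial arrays read 4.68 to 5.56. No difference of Fabp4 was called. Plin1, the droplet coat gene, ranged from 4.65 to 5.48 by its brighter probe and was above background on 2 arrays, so that no level could be set for it at this signal.

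The 3 C/EBP genes did not set stroma apart. Cebpb, the early factor, was bright everywhere, at 14.29, 13.85 and 13.94 in stroma, 14.03 to 14.83 in MaSC-enriched, 14.13 to 15.00 in luminal progenitor and, lowest, 13.22 to 14.44 in mature luminal cells. Its stromal differences reached an adjusted p under 0.05 against both luminal subsets without the required fold (-0.53, limma adjusted p = 0.0282, from luminal progenitor and 0.57, limma adjusted p = 0.0125, from mature luminal cells). Without the MaSC-enriched and luminal progenitor arrays of pools 3 and 4, Cebpb was called lower in stroma than in MaSC-enriched and luminal progenitor cells (-0.77 from the latter). Cebpa, the late factor, read 6.90 to 7.23 in stroma and 6.51 to 8.46 over the epithelial arrays, with a difference of -0.51 from mature luminal cells (limma adjusted p = 0.0639). Cebpd read 9.27 to 10.09 in stroma and 8.65 to 10.29 in epithelium by its brighter probe, with no call. Its dimmer probe went another way, at 7.57, 8.07 and 8.04 in stroma against 4.87 to 5.45 in mature luminal cells, and was called higher in stroma than in MaSC-enriched (1.01, limma adjusted p = 0.0268) and mature luminal cells (2.47, limma adjusted p = 2.17e-06), so the probes of Cebpd disagreed.

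Within the epithelium, 6 of the 10 genes differed between at least 2 subsets by their brightest probes, where 33.1% of all genes did. The dimmer probe of Cebpd, which is not among the 6, was called higher in MaSC-enriched (1.46) and luminal progenitor cells (1.85) than in mature luminal cells. With the mean of the probes Cebpd was counted too. MaSC-enriched cells were higher than mature luminal cells for 5 genes (13.7% of all genes) and lower for 1, Lipe (13.8%). They were higher than luminal progenitor cells for 2, Adipoq and Dlk1 (11.3%), and lower for 0 (10.9%). Luminal progenitor cells were higher than mature luminal cells for 2, Cebpb and Lpl (6.42%), and lower for 1, Lipe (4.67%).

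The largest called differences within the epithelium were those of Dlk1, 4.81-fold higher in MaSC-enriched than in luminal progenitor cells (2.27 ± 0.44, limma adjusted p = 0.000445) and 4.93-fold above the mature luminal level (2.30 ± 0.41, limma adjusted p = 0.000222). Lipe was 2.59-fold lower in MaSC-enriched than in mature luminal cells (-1.38 ± 0.23) and 1.88-fold lower in luminal progenitor than in mature luminal cells (-0.91 ± 0.22). By 1 further Lipe probe neither difference was called (-0.28 and 0.00). By the other, which was near background, only the first was called (-0.68). With the mean of the probes the second was not called (-0.49). Cebpb was about 2.1-fold higher in MaSC-enriched and in luminal progenitor than in mature luminal cells, with log2 differences of 1.06 ± 0.18 and 1.10 ± 0.18. Lpl exceeded its mature luminal level by 1.36 ± 0.37 in MaSC-enriched and 1.60 ± 0.36 in luminal progenitor cells, and Pparg by 1.59 ± 0.46 in MaSC-enriched cells. For that Pparg difference the second probe gave 1.06 and no call (limma adjusted p = 0.0777). In the second hybridisation batch alone, with 2 arrays of each epithelial subset, 1 of the 6 genes was still called, Dlk1, against mature luminal cells. Pparg in MaSC-enriched over mature luminal cells was 1.07 in the first batch alone (limma adjusted p = 0.175), 2.57 in the second (0.0817) and 1.12 without MaSC-enriched replicate 3 (0.0552).

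Leaving out the 4 arrays of pools 3 and 4 moved several of these differences. Pparg in MaSC-enriched over mature luminal cells was then 0.65 (limma adjusted p = 0.0371), still called. Its difference between MaSC-enriched and luminal progenitor cells, 1.16 and not called over all arrays (limma adjusted p = 0.0826), was 0.93 and called (limma adjusted p = 0.00576). The same difference of Lipe, -0.47 and not called over all arrays (limma adjusted p = 0.175), was -0.78 and called (limma adjusted p = 0.00645), and it was also called without MaSC-enriched replicate 3 or 4 alone. Dlk1 in MaSC-enriched cells kept its calls, at 2.34 over luminal progenitor and 1.80 over mature luminal cells. Lipe was -1.81 in MaSC-enriched and -1.03 in luminal progenitor cells relative to mature luminal cells, Cebpb 1.24 and 1.36, and Lpl 1.44 in luminal progenitor cells, each called.

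Dlk1 moved with pericyte genes across the arrays. Its Pearson correlation with the mean of 8 pericyte genes was 0.95 over 18 arrays. Over the 14 left without the 4 MaSC-enriched and luminal progenitor arrays of pools 3 and 4 it was 0.93. The values were 0.78 and 0.69 with the endothelial genes and 0.55 and 0.61 with the fibroblast genes. Of the 8 pericyte genes, 7 were higher in MaSC-enriched than in luminal progenitor cells (11.3% of all genes) and 7 than in mature luminal cells (13.7%). Their summed linear level ran from 3022 to 10424 in MaSC-enriched, 1822 to 5387 in luminal progenitor, 2076 to 3326 in mature luminal and 1692 to 2626 in stromal arrays, with 6 to 8 of them above background on every array. The part of the pericyte genes in the levels of Dlk1 was not tested.

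Adipoq was 2.85-fold higher in MaSC-enriched than in luminal progenitor cells (1.51 ± 0.53, limma adjusted p = 0.0375) and 3.56-fold above the mature luminal level (1.83 ± 0.50, limma adjusted p = 0.00851). Without the 4 arrays of pools 3 and 4 these were 1.63 and 1.12, both called, while Lpl in MaSC-enriched over mature luminal cells fell to 0.77 (limma adjusted p = 0.105) and was not called. The call of Adipoq over luminal progenitor cells was lost in 13 of 35 alternative settings of the analysis, among them the omission of luminal progenitor replicate 1, 2 or 5 or of MaSC-enriched replicate 2, 3 or 4, where limma's adjusted p was 0.294, 0.0953, 0.104, 0.0598, 0.122 and 0.0753. Adipoq and Dlk1 kept their calls against mature luminal cells when any single array was omitted.

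**Figure D2:**
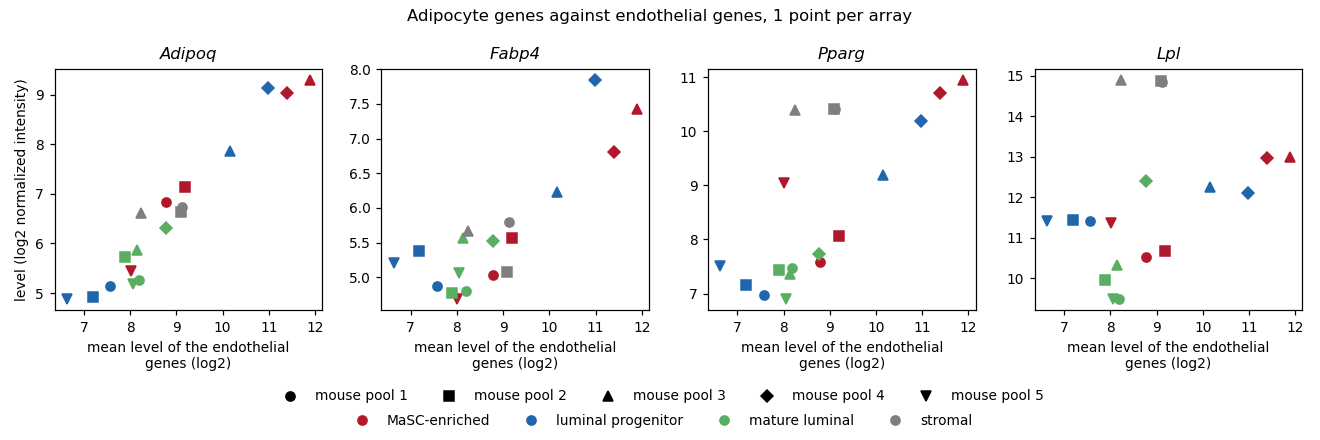
Levels of Adipoq, Fabp4, Pparg and Lpl (vertical axes, log2 normalised intensity) against the mean level of 13 endothelial genes (horizontal axes, log2) on 18 arrays, with colour for the subpopulation and symbol for the mouse pool. The arrays of pools 3 and 4 in the MaSC-enriched and luminal progenitor subsets are at the upper right for Adipoq and Fabp4, and for Pparg and Lpl the 3 stromal arrays stand above the epithelial arrays of like endothelial level.

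The levels of Adipoq moved with endothelial genes across the arrays. Over 18 arrays its Pearson correlation with the mean of the 13 endothelial genes was 0.97, and over the 14 arrays without the 4 named above it was 0.88. For Fabp4 these were 0.85 and 0.32, for Pparg 0.74 and 0.51 and for Lpl 0.37 and 0.35. With the mean of 14 fibroblast genes Pparg gave 0.79 over 18 arrays and 0.95 over 14, Lpl 0.93 and 0.94, Adipoq 0.34 and 0.55, and Lipe -0.77 and -0.84. With the mean of 18 preadipocyte and adipose progenitor genes, described below, the values were close to these. Pparg gave 0.81 and 0.95, Lpl 0.94 and 0.94, Adipoq 0.37 and 0.54, and Lipe -0.77 and -0.85. These correlations are descriptions, and the arrays share pools, subsets and hybridisation batches.

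All 13 endothelial genes passed the filter, 12 or 13 of them were above background on every array, and their summed linear level ran from 8125 to 85595 in MaSC-enriched, 1954 to 55656 in luminal progenitor, 5030 to 9181 in mature luminal and 9863 to 16135 in stromal arrays. In MaSC-enriched cells 8 of the 13 were higher than in mature luminal cells (13.7% of all genes) and 2 than in luminal progenitor cells (11.3%). The sort removed cells with CD31 on their surface. Some other genes of fat cells, picked after their values were seen, followed the same arrays. Aqp7, a glycerol channel, read 8.85 to 10.28 on the 4 arrays and 4.66 to 7.52 on the other epithelial arrays. Cd36, a fatty acid transporter also made by endothelial cells, read 6.49 to 8.51 against 4.76 to 5.72. Not all such genes did. Among luminal progenitor arrays the SD was 2.21 for Aqp7, but 0.23 for Gpd1 and 0.31 for Pnpla2. The part of the endothelial genes in the levels of Adipoq, Fabp4 and Pparg was not tested.

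Likeness between the genes was described over the same 18 arrays. Adipoq and Fabp4 had a Pearson correlation of 0.89, Pparg and Dlk1 0.84, Pparg and Lpl 0.81, Pparg and Adipoq 0.77, Pparg and Fabp4 0.66, Pparg and Plin1 0.63, and Lpl and Lipe -0.69. Outside the 10 genes, Pparg was most like Hoxd8 (0.980), Cbfa2t3 (0.972) and Ebf3 (0.967), and Lpl was most like Ces1d (0.972), Loxl1 (0.969) and the collagen gene Col1a1 (0.968). For Adipoq the nearest was Sox18 (0.985), an endothelial transcription factor, followed by Shank3 (0.973) and Hoxd9 (0.972), and for Fabp4 Gpr182 (0.952), Vsig2 (0.937) and Rasgrp3 (0.929). Dlk1 was nearest to Rgs4 (0.957), Rgs16 (0.951) and Igf2 (0.945). The genes nearest to Adipoq, Fabp4 and Dlk1 were looked up after the levels had been seen.

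The stromal cells were set against lists of genes for the stages of fat cell differentiation. Over all genes tested, 9.93% were higher in stroma than in all 3 epithelial subsets and 9.69% were lower. Each list count below is to be read beside these shares. Of 18 preadipocyte and adipose progenitor genes tested, 15 were higher in stroma than in all 3 epithelial subsets and 0 were lower, with a median stromal minus epithelial difference of 3.77. The mean difference was 5.87 for Gsn, which encodes gelsolin, 5.66 for Ebf2, a transcription factor of committed preadipocytes, and 5.60 for Dpp4, a surface peptidase of adipose progenitors. Pdgfra, the receptor that marks adipose progenitors and other fibroblasts, averaged 13.91 ± 0.11 in stroma (SD, n = 3), and 9.59 ± 1.28, 9.54 ± 0.27 and 7.08 ± 0.78 in MaSC-enriched, luminal progenitor and mature luminal cells (SD, n = 5 each). The 3 exceptions were Ccn5, higher than in MaSC-enriched (2.97) and mature luminal cells (2.68) but not called against luminal progenitor cells, Icam1, lower in stroma than in MaSC-enriched cells (-1.56), and Cd9, lower in stroma than in both luminal subsets (-0.74 and -1.16). The count stayed at 15 without the 4 arrays of pools 3 and 4, and Ly6a was not matched to a probe. Sfrp4, counted among the 15, was close to background in stroma, where it was at least 1.19-fold to 1.23-fold above the epithelial subsets. Pdgfra is also on the fibroblast list, where 13 of 14 genes were higher in stroma than in all 3 subsets with a median of 4.94. Both lists were set against epithelium alone, so these counts cannot tell preadipocytes from other fibroblasts.

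The list of mature adipocyte genes leaves out the 10 genes described above, so Lpl is not counted in it. Of 24 mature adipocyte genes tested, 0 were higher in stroma than in all 3 epithelial subsets (9.93% of all genes) and 2 were lower. The share lower was near that over all genes, 9.69%, and the median was -0.25. The 2 were Dgat2, an enzyme of the last step of triglyceride synthesis (mean difference -3.31), and Pnpla2, the adipose triglyceride lipase (-1.62). A further 3 were higher in stroma than in some subsets, 8 were lower than in some, and 11 were not called against any. Plin4, a lipid droplet protein, was higher in stroma than in luminal progenitor (2.80) and mature luminal cells (3.66) and read 9.11 in stroma and 9.67 in MaSC-enriched cells. Lep and Slc2a4, which encode leptin and the insulin-responsive glucose transporter of fat and muscle, were lower in stroma than in MaSC-enriched cells, by -2.83 and -3.23, and Cidea, Gpd1, Agpat2, Adig, Lpin1 and Retsat were lower than in 1 or both luminal subsets. Cidec, Retn and Pck1 had group means of 4.71 to 5.60, near background. Without the 4 arrays of pools 3 and 4 the counts were again 0 and 2, of 23 genes tested. Of 8 brown adipocyte genes 1, Dio2, was higher in stroma than in all 3 subsets, by 1.30 over MaSC-enriched cells and at least 2.35-fold over luminal progenitor cells, where it was not above background. A bound of this kind sets the mean of the brighter group against background on the arrays of the dimmer group.

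**Figure D3:**
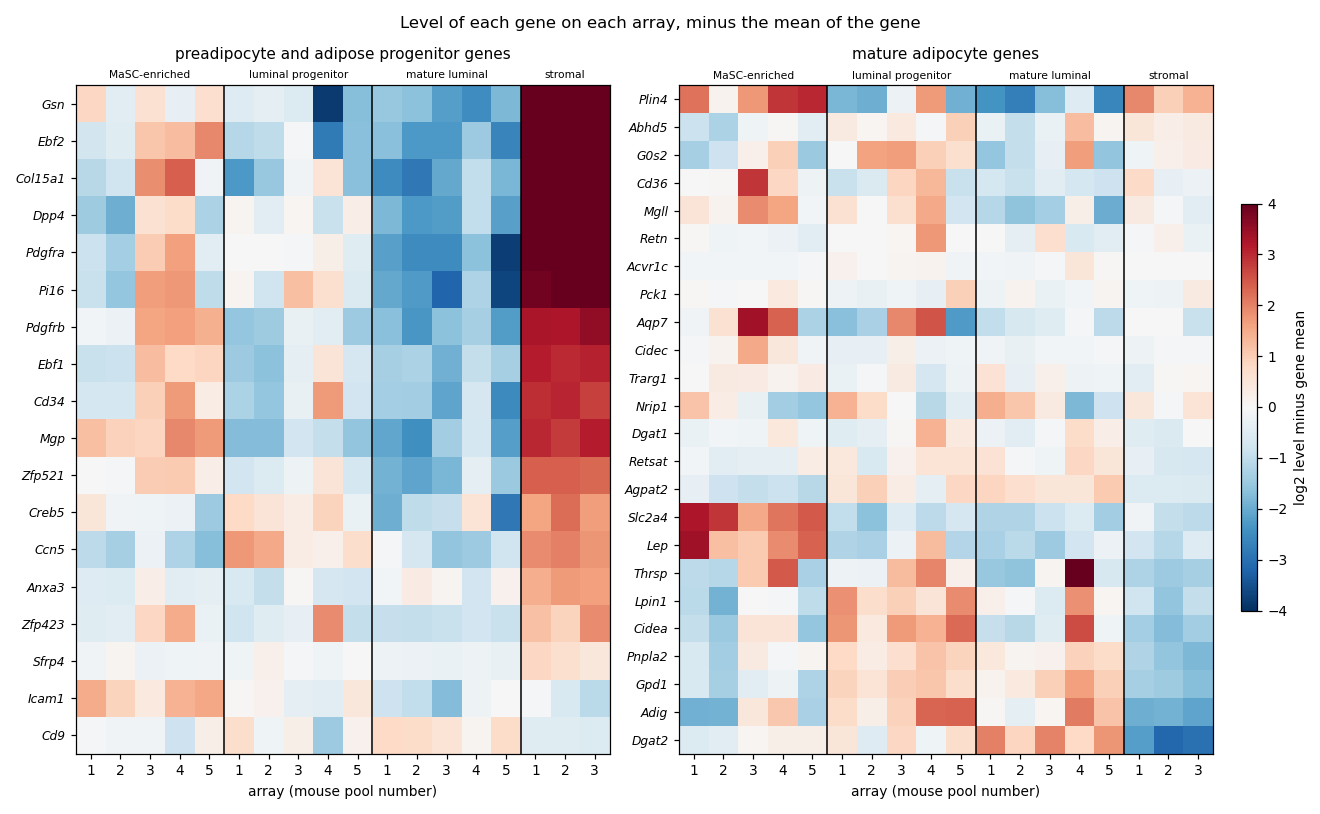
Levels of the 18 preadipocyte and adipose progenitor genes (left) and the 24 mature adipocyte genes (right) on each array, as the log2 level minus the mean of the gene over 18 arrays, with genes ordered by the stromal minus epithelial difference and the colour scale ending at 4 units either way. The 3 stromal columns are high for 15 of the left-hand genes and for 0 of the right-hand genes against all 3 subsets. Over all genes tested, 9.93% were.

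Stromal cells were then compared for regulators of adipogenesis. Among 19 promoting factors, 10 were higher in stroma than in all 3 subsets (9.93% of all genes) and 2 were lower (9.69%). Their median was 1.51. Fgf10, a growth factor of fat pad development, led them (5.74), then Ebf2 (5.66) and Ebf1 (3.96), and Klf5 (-2.00) and Stat5a (-1.65) were lower. Among 22 genes listed as opposing factors, 6 were higher and 3 lower (9.93% and 9.69% of all genes), with a median of 0.32. Runx1t1, a corepressor (4.87), and Twist1, a mesenchymal transcription factor (4.02), were higher. So was Dact1, a Wnt pathway regulator (3.53), whose place among opposing factors is in doubt. Zfp423, Ebf1 and Ebf2 among the promoting factors and Zfp521 among the opposing ones are on the preadipocyte list too. They were counted as higher in each list. The role of a listed gene in adipogenesis was not tested here. Gata3 (-3.78), Sox9 (-2.95) and Tgfb1 (-1.22) were lower. Gata3 and Sox9 are transcription factors of the mammary epithelium as well. Without the 4 arrays the counts were 9 and 2 for promoting and 6 and 2 for opposing factors.

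Relatives of the 10 genes did not all move with them. Of the other C/EBP genes, Ddit3 was higher in stroma than in luminal progenitor (0.87) and mature luminal cells (1.37), and Cebpg and Cebpe were not called. Ppard, the widely expressed PPAR, was lower in stroma than in all 3 subsets (mean difference -0.83, a call lost without the 4 arrays of pools 3 and 4), Rxra, Rxrb and Rxrg, which pair with PPARs, were not called, and Ppara was not above background. Among the fatty acid binding proteins, Fabp3 was lower in stroma than in luminal progenitor cells (-2.73), Fabp5 was lower than in MaSC-enriched (-2.23) and luminal progenitor cells (-0.88), Fabp6, Fabp7 and Fabp9 were not called, and Fabp1 and Fabp2 were not above background.

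Among the perilipins, Plin3 was higher in stroma than in all 3 subsets (0.91), Plin5 was lower than in both luminal subsets (-0.97 from mature luminal cells), and Plin2, the droplet protein of many cell types, was higher than in MaSC-enriched (1.24) and lower than in luminal progenitor cells (-1.45). Of 11 lipases and their partners, Lpl was the 1 higher than in all 3 subsets, and Lipe and Pnpla2 were the 2 lower, or 1 without the 4 arrays. Abhd5, the coactivator of the Pnpla2 lipase, was higher than in MaSC-enriched (1.11) and mature luminal cells (0.72). Gpihbp1, which carries lipoprotein lipase at the capillary wall, was not called in stroma. Of 12 adipokines and receptors, Rarres2, which encodes chemerin (5.19), and Rbp4, which encodes a retinol carrier (4.02), were higher than in all 3 subsets. Rbp4 averaged 9.22 in stroma and 5.00 to 5.27 in the epithelial subsets.

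**Figure D4:**
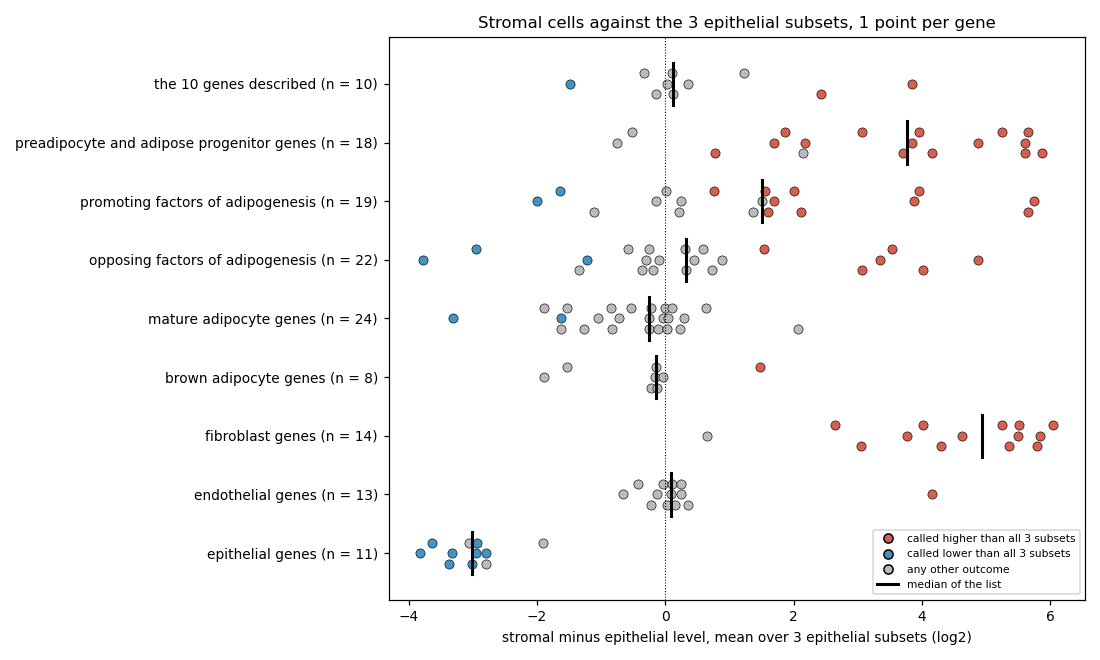
Stromal minus epithelial difference of each gene, as the mean over the 3 epithelial subsets (horizontal axis, log2), for the 10 genes described and 8 lists, with the list median as a bar and colour for genes called higher or lower than all 3 subsets. The preadipocyte list has its median at 3.77 with 15 of 18 genes called higher, and the mature adipocyte list has its median at -0.25 with 0 of 24 called higher. Over all genes tested, 9.93% were called higher and 9.69% lower than in all 3 subsets.

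Other cell types of the stroma were counted as well, beside 9.93% of all genes higher and 9.69% lower in stroma than in all 3 subsets. Of 11 macrophage and blood cell genes, 2 were higher in stroma than in all 3 subsets, Aif1 (1.14) and Cd3e (2.88), and Ptprc, which encodes CD45, averaged 4.74 in stroma, below background. Of 13 endothelial genes 1, Tek (4.16), was higher than in all 3. Of 8 pericyte genes 2, Abcc9 (2.77) and Kcnj8 (2.43), were higher and 1, Notch3 (-1.60), was lower, or 0 without the 4 arrays. The part of these cell types in the levels of the 10 genes was not tested.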

How the data were processed

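Total RNA of sorted mammary subpopulations was hybridised to Illumina BeadChips. Per the labels and the methods of the study, the authors exported probe profiles with BeadStudio and normalised them with limma, by normexp background correction with control probes, quantile normalisation and a log2 transformation, and the deposited log2 values were used as they are. A further deposited table of unnormalised intensities has 18 signal and 18 detection columns headed by numbers that could not be tied to samples, so it was not used. Arrays have no read depth, and precision is limited by the number of arrays. Of 45281 probes, 34885 carried 1 gene symbol, 18 several and 10378 none, in an annotation that can be old. Symbols and older aliases were matched through Entrez identifiers, and 203 of 216 list genes were matched.

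Background on each array was the median of 1506 odorant and vomeronasal receptor probes plus the normal quantile that leaves 1% above, times their median absolute deviation. A probe was kept if 1 array or more exceeded it (35585, or 78.6%, among them 660 receptor probes), and the brightest kept probe stood for a gene. limma 3.58.1 with statmod 1.5.0 in R 4.3.3 fitted 1 mean per subpopulation with array weights and a random effect for the pool of mice (block correlation 0.263), and tested 6 pairwise comparisons together. The pooling comes from the labels. Residuals of arrays from the same pool had a median correlation of 0.414 (24 pairs), against 0.017 for other pools of the same batch (57 pairs) and -0.243 across batches (72 pairs). The median difference over all genes was between -0.059 and -0.020 log2 units in the 6 comparisons. The fit was tested on simulated data.

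The 10 genes, the lists and the tests were chosen with earlier results of these data known. The genes named are the 10, their gene families, up to 3 genes per list and direction with the largest mean difference among those called against all 3 epithelial subsets, and the 3 genes most correlated with each of Pparg and Lpl. Other genes named were chosen after their values were seen. Alternatives covered the filter, the background, cyclic loess, array weights, blocks, batches, the adjustment, a test against the fold itself, the mean of probes, and leaving out arrays. Promoter sequences are from RefSeq (GRCm38.p6). Protein sequences were not used here.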

Additional observations from a re-analysis of the deposited data

How the results depend on the processing

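Over 35 alternative settings, 18 of which left out 1 array, none of the 22 called differences of the 10 genes changed sign, and 12 kept their call under every alternative that holds stromal arrays. Of the 38 uncalled differences, 22 changed sign under at least 1 alternative and 10 passed under at least 1. The count of genes higher in stroma than in all 3 epithelial subsets, 2, was 1 without array weights, 1 in the test against the fold itself, and 1 to 2 when single arrays were left out, with Lpl called in each setting. The pairing by mouse pool mattered for this count alone of the 5 counts: with no replicate block it was 1. The count of genes lower than in all 3, 1, was 0 in the test against the fold, 0 with the mean of the probes and 0 without the MaSC-enriched and luminal progenitor arrays of pools 3 and 4, an alternative chosen after seeing the data. The count of genes that differed within the epithelium, 6, was 3 in the test against the fold and 1 in the second batch alone, which holds 6 arrays. Wherever stromal arrays were present, which the second batch alone lacks, the preadipocyte count of 15 ran from 12 to 16 and the mature adipocyte count stayed at 0. The cause of these changes was not tested. Renormalising the unnormalised intensities was not run because their columns could not be tied to samples. Signal near background limits what can be said of Plin1 and Fabp4, and the top of the scale limits Lpl and Cebpb.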
